A study of Arabidopsis thaliana with 4 samples.

Results

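Cytochromes P450 are haem-containing monooxygenases, and plants use them to oxidise hormones, pigments, cuticle lipids, phenolics and defence compounds. Most sit on the endoplasmic reticulum and take electrons from an NADPH-dependent reductase. Their names give a family number, a subfamily letter and a member number, so CYP71B29 is a member of subfamily CYP71B. This subfamily is large in Arabidopsis thaliana and many of its genes lie beside each other in the genome. CYP71B15, which makes the phytoalexin camalexin, is its best known enzyme, and CYP71B6 is known to act on indole-3-acetonitrile.

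The 9 probes described here are those of the array whose platform annotation lists at least 1 gene with a P450 name of this form. All 9 gave a measured ratio on at least 3 of the 4 arrays, out of 25777 gene probes that did so and 26474 gene probes in all. All 9 list CYP71B genes, so the probes speak for this subfamily and not for P450 enzymes at large. Between them they list 10 genes, of the 36 named CYP71B and the 236 with a P450 name in the TAIR10.1 gene table. A further probe, that of CYP718, has a P450 name without a subfamily letter and is no member.

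Each of the 4 two-channel Operon arrays, called sets 1 to 4, compared total RNA of inflorescences from apetala2 plants with that from wild-type plants. The apetala2 mutants lack normal function of a transcription factor that gives sepals and petals their identity. Per the labels, apetala2 RNA took channel 1 of the odd-numbered sets and channel 2 of the even-numbered ones. The sources used here do not give the allele, the plants' background and age, the dyes or the numerator of the ratio, nor whether the sets came from separate plants. An inflorescence holds buds and flowers of many ages, and a change in the share of a cell type cannot be told apart from a change in RNA per cell.

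Values are log2 ratios of the 2 channels as the authors normalized them. With the signs of sets 2 and 4 turned, called the labelled orientation, a positive value means more signal from apetala2 if channel 1 is the numerator. Over all probes the arrays run only in part as labelled. Within each pair the sets run opposite, as their labels do: Pearson's r was -0.479 between sets 1 and 2 and -0.474 between sets 3 and 4. Between the pairs the signs go against the labels. For sets with the same labelled channels r was negative, at -0.227 (sets 1 and 3) and -0.119 (sets 2 and 4). For those labelled opposite it was positive, at 0.313 (sets 1 and 4) and 0.307 (sets 2 and 3). Each result is therefore also given with the signs of sets 2 and 3 turned instead, and no gene is called higher in a genotype. For a probe with 4 values, take the labelled average of sets 1 and 2 less that of sets 3 and 4. The mean in the second orientation is exactly 0.5 times this difference. Its test counts the labelled mean as error, so it does not test the difference by itself.

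Of the probes, 4 list 1 gene each. CYP71B29 (AT1G13100, on chromosome 1) and CYP71B26 (AT3G26290, on chromosome 3) have no role stated here. CYP71B6 (AT2G24180, on chromosome 2) is the enzyme of indole-3-acetonitrile metabolism. CYP71B30P (AT3G53290, on chromosome 3) carries the P that P450 naming gives to pseudogenes, although the gene table lists it as protein coding. The other 5 probes list several genes and cannot be assigned to one. Probes A009776_01 and A022256_01 both list CYP71B5 (AT3G53280) and CYP71B38 (AT3G44250). Probes A025065_01 and A025066_01 both list CYP71B22 (AT3G26200) and CYP71B21 (AT3G26190). Probe A025124_01 lists CYP71B37 (AT3G26330), CYP71B36 (AT3G26320) and also CYP71B6.

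Some of the listed genes are neighbours. Of the 10 genes, 8 lie on chromosome 3, which holds 23 of the 36 CYP71B genes. In gene order CYP71B21 is next to CYP71B22, CYP71B36 next to CYP71B37, and CYP71B5 next to CYP71B30P. Near-identical copies can bind the same probe, so even a probe listed with 1 gene may carry signal from a relative.

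No CYP71B probe passed in either orientation at an adjusted p under 0.05 in limma, a linear model with moderated variances fitted to all 25777 probes. In the labelled orientation 0 of 9 passed, where 0% of all probes did, and with sets 2 and 3 turned 0 of 9 passed, where 2.05% did. Without moderation the count was also 0 in each orientation. At an unadjusted p under 0.05 there were 2 of 9 in the labelled orientation, CYP71B29 and A025066_01, against 6.55% of all probes, and 0 of 9 with sets 2 and 3 turned, against 13.1%. What differed among the probes was the sign pattern over the sets, described next.

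CYP71B29 had the largest ratios of the subfamily on sets 1 and 2, and larger ones came from other probes on sets 3 and 4. In the labelled orientation sets 1 to 4 gave 1.34, 1.91, 0.37 and 0.15. All 4 were positive, and the first pair of sets stood well above the second. On set 2 it exceeded 99.6% of all measured probes and on set 1 97.9%, but on set 4 only 67.3%. The mean was 0.94 ± 0.33 (SE, n = 4), a 1.92-fold ratio, with a 95% interval of 0.12 to 1.77. It exceeded the mean of 99.2% of all probes and did not pass over all of them (limma adjusted p = 0.760). Leaving out 1 set gave means of 0.62 to 1.21, the lowest without set 2.

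The size of the CYP71B29 ratio differed between the pairs of sets, and that difference was not tested by itself. Sets 1 and 2 averaged 1.63 and sets 3 and 4 averaged 0.26 in the labelled orientation. With sets 2 and 3 turned the mean was 0.68 ± 0.41 (SE, n = 4, limma adjusted p = 0.547), with a 95% interval of -0.34 to 1.70. Of the sum of its squared ratios 63.6% lay in the labelled sign pattern and 33.1% in the pattern with sets 2 and 3 turned. It thus held one sign on every set as the labels run, with unequal size.

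The probes of CYP71B22 with CYP71B21 had smaller ratios than CYP71B29 on sets 1 and 2 and held 1 sign over the sets. A025066_01 had labelled values of -0.53, -0.26, -0.31 and -0.34 on sets 1 to 4. A025065_01 had -0.25, -0.05, -0.06 and -0.21. All 8 values were negative and none reached the size of the smallest value of CYP71B29 on sets 1 and 2. The mean of A025066_01 was -0.36 ± 0.11 (SE, n = 4, limma adjusted p = 0.760), with a 95% interval of -0.65 to -0.07. That of A025065_01 was -0.14 ± 0.11 (SE, n = 4, limma adjusted p = 0.816), with an interval of -0.42 to 0.14. Averaged over both probes the mean was -0.25 ± 0.11 (SE, n = 4, limma adjusted p = 0.746). Of all probes 9.28% had a lower labelled mean than A025066_01 and 24.3% a lower one than A025065_01.

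Sets 1 and 2 and sets 3 and 4 hardly differed for this gene pair. A025066_01 averaged -0.39 on the first pair of sets and -0.33 on the second, and A025065_01 averaged -0.15 and -0.13. Their means in the second orientation were -0.03 ± 0.19 and -0.01 ± 0.13 (SE, n = 4). The 95% intervals of these were -0.50 to 0.43 and -0.33 to 0.31. They are for 0.5 times the difference between the pairs of sets and count the labelled mean as error. They thus do not measure how well that difference is known, and it was not tested by itself. Of the squared ratios of A025066_01 92.2% lay in the labelled pattern, a share that 1.48% of all probes reached. For A025065_01 the share was 71.0%, reached by 9.97%.

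CYP71B5 with CYP71B38 also gave the same sign on all sets, with uneven sizes for A009776_01 above all. A009776_01 had labelled values of -0.97, -0.19, -0.27 and -0.02 on sets 1 to 4. A022256_01 had -0.40, -0.06, -0.16 and -0.40. Set 1 was the most negative for the first probe and level with set 4 for the second. The means were -0.36 ± 0.19 (SE, n = 4, limma adjusted p = 0.761) and -0.26 ± 0.12 (SE, n = 4, limma adjusted p = 0.760), with 95% intervals of -0.84 to 0.12 and -0.57 to 0.06. Without set 1 the mean of A009776_01 was -0.16, so that set 1 made up much of its size.

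Neither probe of CYP71B5 with CYP71B38 held 1 sign when sets 2 and 3 were turned. Their means there were -0.22 ± 0.22 and 0.03 ± 0.16 (SE, n = 4), with limma adjusted p of 0.719 and 0.959. The labelled pattern held 50.0% of the squared ratios of A009776_01 and 74.9% of those of A022256_01. Averaged over both probes the labelled mean was -0.31 ± 0.14 (SE, n = 4, limma adjusted p = 0.746).

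Probes that list the same genes can be set against each other as a measure of error. The 2 probes of CYP71B22 with CYP71B21 differed by 0.28, 0.21, 0.25 and 0.14 on sets 1 to 4, a root mean square difference of 0.23. Those of CYP71B5 with CYP71B38 differed by 0.57, 0.13, 0.10 and 0.38, a root mean square difference of 0.35. Among 1345 pairs of probes on the array that list the same several genes the median of this difference was 0.45. By this measure both CYP71B pairs lay nearer together than the median pair. The labelled means of the 2 probes differed by 0.22 for CYP71B22 with CYP71B21, beside an averaged mean of -0.25. For CYP71B5 with CYP71B38 they differed by 0.10, beside an averaged mean of -0.31. The median difference of labelled means over the 1345 pairs was 0.18. Over those 1345 pairs the labelled means shared a sign in 56.7%, so 2 probes of the same genes often part in sign on this array.

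CYP71B6 was the member that held 1 sign on all 4 sets in the second orientation. Its labelled values were 0.17, 0.15, -0.36 and -0.98 for sets 1 to 4. The pairs of sets did not overlap and had opposite signs. All 4 values were therefore positive with sets 2 and 3 turned, with a mean of 0.41 ± 0.18 (SE, n = 4, limma adjusted p = 0.404), a 1.33-fold ratio with a 95% interval of -0.02 to 0.85. The labelled mean was -0.25 ± 0.23 (SE, n = 4, limma adjusted p = 0.834). Set 4 weighed most: without it the turned mean was 0.23 and the labelled mean -0.01.

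Probe A025124_01, which lists CYP71B6 beside CYP71B37 and CYP71B36, did not follow the probe of CYP71B6. Its labelled values were -0.49, -0.72, 0.72 and -0.35 on sets 1 to 4, so that set 3 stood alone above 0. Its means were -0.21 ± 0.26 (SE, n = 4, limma adjusted p = 0.884) in the labelled orientation and -0.40 ± 0.21 (SE, n = 4, limma adjusted p = 0.495) with sets 2 and 3 turned. In the second orientation the probe of CYP71B6 thus had a positive mean and this one a negative mean. Unturned, the ratios of A025124_01 were -0.49 on set 1 and 0.72, 0.72 and 0.35 on sets 2 to 4. Of its squared ratios 30.2% lay in the mean of the unturned ratios, the part in which 1 channel exceeds the other on average whatever its RNA. No other CYP71B probe had as large a share there.

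CYP71B26 had labelled values of 0.33, 0.45, 0.06 and -0.42 on sets 1 to 4. Set 4 alone was negative. The labelled mean was 0.11 ± 0.18 (SE, n = 4, limma adjusted p = 0.928), with a 95% interval of -0.35 to 0.56, and it turned to -0.01 without set 2. With sets 2 and 3 turned the values were 0.33, 0.45, -0.06 and 0.42, and the mean was 0.29 ± 0.14 (SE, n = 4, limma adjusted p = 0.458). In that orientation 65.7% of its squared ratios were held, the highest share of the CYP71B probes.

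CYP71B30P was measured on 3 arrays only. On set 1 its deposited value was 6.64, the upper limit of the scale (a ratio of 100), which is where 62.8% to 87.0% of the empty spots of each array also sat, and it was treated as not measured. The other labelled values were -0.81, -0.13 and 0.43 on sets 2, 3 and 4, with both signs present. The means were -0.17 ± 0.28 (SE, n = 3, limma adjusted p = 0.927) in the labelled orientation and -0.37 ± 0.22 (SE, n = 3, limma adjusted p = 0.554) with sets 2 and 3 turned. If the limit value is kept as deposited the means are 1.53 and 1.38, so 1 value sets the sign. Its neighbour CYP71B5 is listed only by probes that also list CYP71B38.

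Counted together, 5 of the 8 CYP71B probes with 4 values held 1 sign on all arrays in the labelled orientation, and 1 of 8 did with sets 2 and 3 turned. Over all 25185 such probes 16.3% did so in the first and 22.95% in the second. By direction, 4 of 8 lay below 0 on all arrays in the labelled orientation, where 7.58% of all probes and 8.07% of probes listing several genes did, and 1 of 8 lay above 0, where 8.76% did. With sets 2 and 3 turned 0 of 8 lay below 0 on all arrays, where 10.5% of all probes did, and 1 of 8 lay above 0, where 12.4% did. The 4 negative probes are 2 probes each of 2 gene pairs, so they count as 2 sets of targets and not as 4. This count was made after the values had been seen, and no test was run on it.

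CYP71B29 apart, the fitted means of the subfamily ran from -0.36 to 0.11 in the labelled orientation. The labelled means of all probes tested had an SD of 0.32. The 4 probes with 1 gene had labelled means from -0.25 to 0.94 with a median of -0.03, beside a median of 0.02 over all probes tested. The 5 with several genes had labelled means from -0.36 to -0.14 with a median of -0.26, and all 5 were negative. In the second orientation the medians were 0.35 for the probes with 1 gene and -0.03 for those with several, beside 0.03 over all probes. The median of the probes with 1 gene rests on few values and moved with the treatment of CYP71B30P, to 0.53 in the labelled orientation when its limit value was kept.

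Summed over the 8 probes the labelled pattern held 50.6% of the squared ratios and the pattern with sets 2 and 3 turned 34.5%. Over all gene probes these shares were 24.8% and 50.3%. CYP71B29 weighs heavily in the first share. Over the probes with several genes alone the shares were 44.9% and 23.7%, but this leaves out CYP71B6 and CYP71B26 as well as CYP71B29. Those 2 probes had labelled shares of 22.6% and 8.97%, and shares of 60.4% and 65.7% with sets 2 and 3 turned. The shares without CYP71B29 alone were not computed, so how far the labelled share rests on it is not shown. Between sets 1 and 3 the 8 probes correlated at r = 0.33, and without CYP71B29 at r = -0.005. Leaving out CYP71B29 also moved sets 1 and 4 from r = -0.137 to 0.709, sets 2 and 3 from -0.150 to 0.541, and sets 2 and 4 from 0.397 to -0.349. The other 7 probes thus had the signs of the whole array between the pairs of sets, though near 0 for sets 1 and 3, and the opposite signs with CYP71B29 kept rest on that 1 gene. These are descriptions over 8 probes that share arrays and in part targets.

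For CYP718, the P450 probe outside the naming rule, the deposited ratios of sets 1 to 4 were -0.24, -0.89, -0.80 and 0.73. The labelled mean was -0.22 ± 0.31 and the mean with sets 2 and 3 turned 0.54 ± 0.22 (SE, n = 4), with limma adjusted p of 0.902 and 0.372. Both means had the signs of those of CYP71B6, but set 1 was negative in both orientations.

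Little else of the P450 pathways could be followed on the named probes. The annotation used here leaves 13193 of the 26474 gene probes unnamed, so other P450 genes may have probes that the rule could not find. Of 14 lists of P450 genes by role, 13 had no named probe that lists a member, among them those for pollen wall, cutin, brassinosteroid, gibberellin and jasmonate enzymes, and no named probe lists a P450 reductase or cytochrome b5. The glucosinolate and camalexin list, of 20 genes, was represented by CYP71B6 alone among genes with a probe of their own. Of 15 partner genes of glucosinolate synthesis 2 had a probe of their own and neither passed in either orientation. UGT74B1, the glucosyltransferase of the core pathway, had a labelled mean of 0.06 ± 0.40 and BCAT4, an aminotransferase of methionine chain elongation, -0.23 ± 0.15 (SE, n = 4).

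Some probes listing markers of other floral cell types passed in the second orientation. Of 15 probes that list a mature pollen marker, 8 passed below 0 in the second orientation, where 2.05% of all probes passed in either direction, and 0 passed in the labelled one, where 0% did. The 528 passing probes behind that share fell to 0 without moderation and on averaging each pair of sets. The 15 mature pollen probes had medians of -1.34 with sets 2 and 3 turned and 0.11 in the labelled orientation. Only 3 of them list 1 gene. With sets 2 and 3 turned their limma adjusted p were 0.024 (RALFL25), 0.121 (TUA1) and 0.520 (SHT). The others list several genes and cannot be assigned to one. For 9 probes listing an anther or tapetum marker, the medians were -0.59 with sets 2 and 3 turned and -0.49 in the labelled orientation, with 1 (negative) and 0 passing. Of these 9, 7 list 1 gene, and the passing probe is not among them. For 12 listing a carpel or ovule marker the medians, in the same order, were 0.16 and 0.03, with 2 (both positive) and 0 passing. Of these 12, 5 list 1 gene, and 1 of the 2 passing probes is among them. None of the 3 probes listing a petal or sepal marker (medians 0.06 with sets 2 and 3 turned and 0.17 in the labelled orientation) passed in either orientation. Neither did the 2 listing a photosynthesis marker, with medians of -0.33 and 0.42, both probes being negative with sets 2 and 3 turned and positive in the labelled orientation. The part of these cell types in the CYP71B ratios was not tested.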

How the data were processed

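The authors deposited 1 table of log2 ratios of the 2 channels of each array, which per the labels were processed by a published procedure. The sources used here do not give the scanner, background correction, filters or genome build. No intensities were used, and precision is limited by having 4 arrays. Of 26933 spots 459 were controls and were left out. Values within 0.0001 of a log2 ratio of 6.64 in size were treated as not measured.

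Probes were named from the platform annotation (5784 with 1 gene, 7497 with several, 13193 unnamed here), and loci and neighbours from the TAIR10.1 gene table. Probes measured on at least 3 arrays were fitted with limma 3.58.1 (R 4.3.3), lmFit and eBayes, in both orientations, two-sided against 0, with Benjamini-Hochberg adjustment over all probes. SE and 95% intervals are moderated. The fit was tested on simulated data with independent normal errors, so that test did not cover the correlations between these arrays. The p-values measure only the spread between arrays, which may be technical.

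The probes, lists and second orientation were chosen with earlier results of these data known. The rule for named genes took every passing member, the largest means of 1 sign, and list members with a probe of their own. Marker genes are given by list, apart from the mature pollen markers with a probe of their own. The phenylpropanoid and gibberellin partners, none of which passed, are not given singly. Alternatives covered the limit values, filter, arrays left out, a channel term, averaging, centring, scaling and moderation.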

Additional observations from a re-analysis of the deposited data

How the results depend on the processing

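No CYP71B probe passed under any alternative in either orientation, and the lowest limma adjusted p of any probe was 0.194 (A025124_01 with sets 2 and 3 turned, without set 4). CYP71B29, CYP71B6 and A025124_01 kept their direction in both orientations under all alternatives run. With the limit values kept, the median of the probes with 1 gene became 0.53 in the labelled orientation and 0.55 with sets 2 and 3 turned, and CYP71B30P became 1.53 and 1.38, because its set 1 value then enters. Leaving out 1 set in turn gave labelled medians of -0.0697 to 0.28, the highest without set 4. CYP71B30P has no value without sets 2, 3 or 4. It gave labelled means of CYP71B26 from -0.0092 to 0.28. With sets 2 and 3 turned it gave A009776_01 from -0.38 to 0.032, A022256_01 from -0.10 to 0.17, A025065_01 from -0.080 to 0.072 and A025066_01 from -0.16 to 0.13. Averaging probes that list the same genes, chosen after seeing the data, gave A022256_01 -0.10 there. The 528 probes passing over all probes with sets 2 and 3 turned fell to 0 on averaging each pair of sets (1 with 2, 3 with 4), and were 158 with the limit values kept. They were 273 with a channel term, 0 without moderation, and 94, 441, 117 and 116 without sets 1 to 4. The cause of these moves was not tested. Each ratio already pairs apetala2 with wild type on 1 array, and no further paired analysis was run. Brightness over background was not used, so its limit on these ratios is unknown.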
